A study of Mus musculus with 10 samples.

Results

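The genes described here are 36 components of the extracellular matrix other than collagens: adhesive glycoproteins, proteoglycans, basement membrane proteins and the proteins of elastic fibres. They were chosen by symbol as named matrix genes, with earlier results of these data known, and all 36 were found among the 29657 genes of the expression table. The data were poly(A) RNA-seq profiles of liver from 10 C57BL/6 mice fed CDAHFD for 8 weeks, a choline-deficient, high-fat diet with defined amino acids, used as a model of steatohepatitis and scarring. The 5 control mice were labelled wild type and received the control vector AAV8-NC, an adeno-associated virus of serotype 8, by vein. The other 5 received AAV8-TBG-galectin-3 by vein and are labelled as a hepatocyte-specific knockdown of galectin-3. TBG is a promoter active in hepatocytes, so cells of other types were not the target. The insert of the vector, the sex and the age of the mice are not given in the sources used here. Both groups had the diet and an AAV8 vector, and no mice on ordinary food or without vector are among these libraries.

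The extracellular matrix is the mesh of secreted proteins that surrounds and anchors cells. In healthy liver the space along the sinusoids holds a sparse matrix, and in chronic injury activated stellate cells and portal fibroblasts lay down a dense one in which glycoproteins and proteoglycans bind and organise collagen. Elastic fibres have a core of elastin on a scaffold of fibrillin microfibrils, and basement membranes join laminin networks to collagen IV through nidogen and perlecan. Hepatocytes secrete fibronectin and vitronectin into plasma, so the liver level of these 2 transcripts need not come from scar-forming cells. Their cell source was not tested here.

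Lgals3, the transcript of galectin-3, stood at 42.2 to 105 FPKM in the control libraries and at 41.9 to 90.8 FPKM in the libraries labelled knockdown (FPKM is a fragment number scaled to transcript length and to the library's total). The means were 70.8 ± 22.9 and 74.2 ± 20.1 FPKM (SD, n = 5 each), with a limma adjusted p of 0.856. Whole liver also holds Lgals3 from cells that the vector does not target. The group is therefore called labelled knockdown here, and the direction of each difference is the one the labels give. Each library had 21653 to 23079 genes above 0, and steps between low values implied a depth of 15.5 to 19.4 M fragments, an uncertain figure, since whole multiples of the step made up no more than 8.06 to 9.94% of low values. Of the 11 cell type lists examined, 8 hepatocyte markers summed to 34929 to 38981 FPKM in control and 30856 to 39469 FPKM in labelled knockdown libraries. Alb alone held 25517 to 30351 and 21959.6 to 27866 FPKM of these sums. Of these 8 markers, 2 were lower (Cps1, a urea cycle enzyme, and Hnf4a, a hepatocyte transcription factor, log2 fold changes -0.71 and -0.42, limma adjusted p = 0.00944 each). Ttr was higher (log2 fold change 0.40, limma adjusted p = 0.0268). For Cps1, Hnf4a and Ttr alike the groups did not overlap, where 7.48% of all tested genes lay below and 5.66% above without overlap. The median log2 fold change of the 8 was -0.05, and 4 of them were below 0. Over all tested genes 9.65% were lower and 7.13% higher. No marker of any list was at 0 in all libraries. The cholangiocyte and portal lists share Krt19.

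Of the 36 members, 30 reached 0.5 FPKM in at least 5 libraries and were tested. In the labelled knockdown group 8 of them were lower, with limma and an adjusted p under 0.05, and 0 were higher. The share of lower members was 26.7%, where 9.65% of all 13471 tested genes were lower and 7.13% higher (16.8% in either direction). The 8 were Nid1 and Lamc1 of the basement membrane, Thbs1, Sparc, Fn1 and Tnc among the adhesive and matricellular glycoproteins, the proteoglycan Lum, and the microfibril gene Fbn1. At an unadjusted p under 0.05, 15 members were lower and 1, Ecm1, was higher, where 19.6% of all tested genes were lower and 13.9% higher. The fitted log2 fold change was below 0 for 28 of the 30, where 55.6% of all tested genes were below 0. Their median was -0.29, against -0.04 over all tested genes. These are descriptions of the tested members: 7 of the 30 reached the minimum in fewer labelled knockdown than control libraries (Fbn1, Tnc, Ltbp1, Ltbp2, Mgp, Mfap2 and Mfap4), so the filter favours members that are higher in the control group. At a minimum of 0.1 FPKM, 35 members were tested and 7 were lower, where 6.59% of all genes were. In whole liver, fewer cells of a type and less RNA per cell cannot be told apart.

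**Figure D1:**
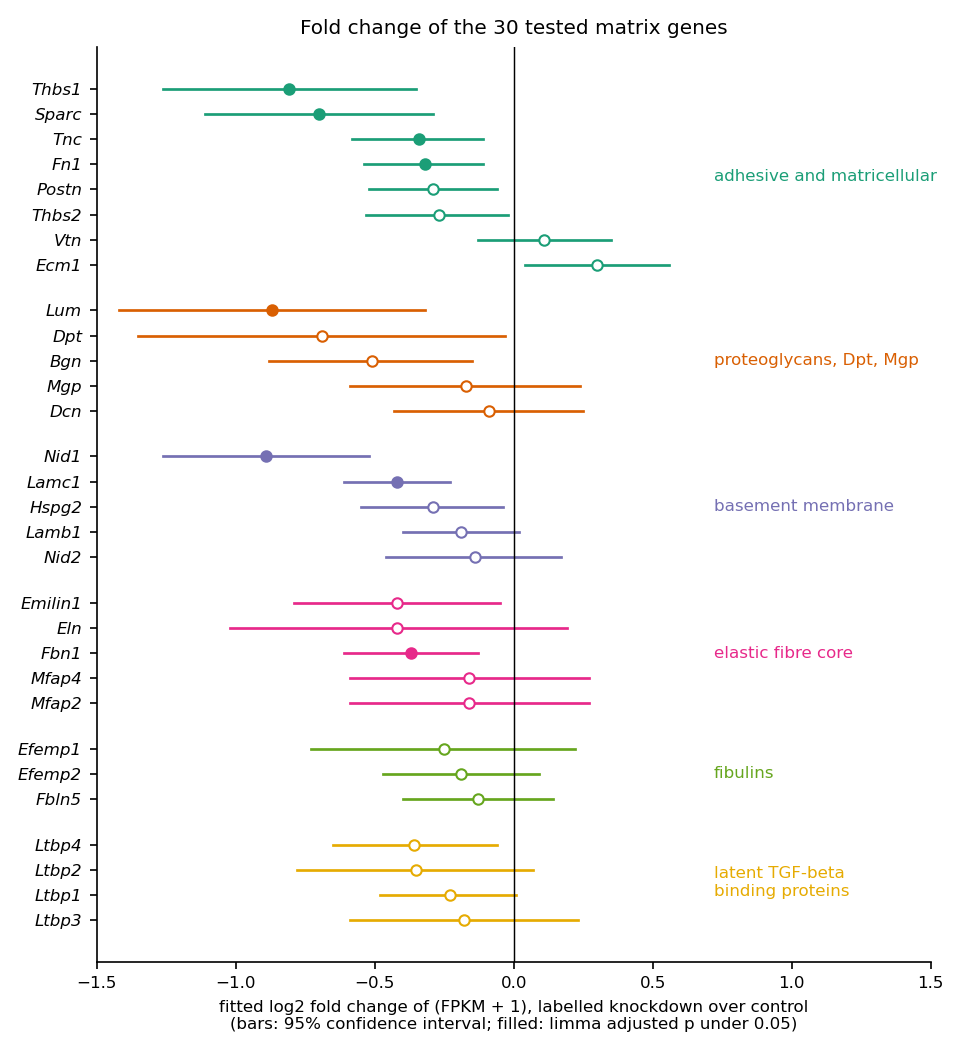
Fitted log2 fold change of FPKM + 1 (x axis, labelled knockdown over control) for each of the 30 tested matrix genes (y axis, grouped by role), with 95% confidence intervals. Filled points are the 8 genes past the limma test; 28 of the 30 points lie left of 0, and Ecm1 and Vtn lie right of it.

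The basement membrane held the members whose calls were most stable. Nid1 encodes nidogen-1, a rod-shaped glycoprotein that links laminin to collagen IV. It stood at 6.62, 7.45, 7.52, 7.12 and 9.68 FPKM in control libraries 1 to 5 and at 4.54, 3.53, 3.80, 5.02 and 2.0 FPKM in labelled knockdown libraries 1 to 5. Every labelled knockdown value was below every control value. The mean was 7.68 ± 1.18 FPKM in the control and 3.78 ± 1.16 FPKM in the labelled knockdown group (SD, n = 5 each), 49.2% of the control level. On the log2(FPKM + 1) scale used for all fold changes below, the difference was -0.89 with an SE of 0.17 and a 95% confidence interval of -1.26 to -0.52 (limma, adjusted p = 0.0103).

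Lamc1 encodes laminin gamma 1, a chain shared by most laminins. Control libraries 1 to 5 held 2.87, 3.01, 2.91, 2.90 and 3.09 FPKM of it, and labelled knockdown libraries 1 to 5 held 2.35, 1.98, 1.89, 2.20 and 1.44 FPKM. No labelled knockdown value reached the control range, and the control values lay close together, at 2.96 ± 0.0912 FPKM against 1.97 ± 0.348 FPKM. Its log2 fold change of -0.42 had an SE of 0.09 (limma, adjusted p = 0.0134). For Nid1 and Lamc1 the call held under all 11 alternative settings and whichever single library was left out, with an adjusted p of at most 0.0315 and 0.0359.

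The remaining basement membrane members did not pass the test. Hspg2, which encodes the heparan sulphate proteoglycan perlecan, averaged 1.52 ± 0.303 and 1.07 ± 0.304 FPKM in control and labelled knockdown libraries, and Lamb1, the laminin beta 1 chain that pairs with gamma 1, 1.76 ± 0.296 and 1.41 ± 0.234 FPKM (limma adjusted p = 0.103 and 0.181). Nid2, the paralog of Nid1, was at 0.704 to 1.88 FPKM in control and 0.669 to 1.41 FPKM in labelled knockdown libraries. Its log2 fold change was -0.14, with an interval of -0.46 to 0.17 that does not overlap the interval of Nid1; the difference between these paralogs was not tested. The laminin alpha chain genes Lama2 and Lama4 were under the minimum for testing. Lama2 ranged from 0.227 to 0.411 FPKM in control and from 0.115 to 0.262 FPKM in labelled knockdown libraries, and Lama4 from 0.229 to 0.655 and from 0.142 to 0.319 FPKM.

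Among the adhesive and matricellular glycoproteins, 4 of 8 tested members were lower, where 9.65% of all tested genes were. Thbs1 encodes thrombospondin-1, a trimeric glycoprotein that can activate latent TGF-beta. It was at 2.68, 3.06, 2.31, 6.03 and 2.74 FPKM in control libraries 1 to 5 and at 1.44, 1.22, 1.17, 2.49 and 0.945 FPKM in labelled knockdown libraries 1 to 5. Control 4 stood above all other libraries, and labelled knockdown 4 was the sole library of its group above the lowest control. Its log2 fold change of -0.81 had an SE of 0.21 (limma, adjusted p = 0.0264), and without control 4 it was -0.62 (adjusted p = 0.0348).

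Sparc encodes osteonectin, a collagen-binding glycoprotein of remodelling tissue. Control libraries 1 to 5 held 25.6, 30.4, 27.0, 26.3 and 23.2 FPKM, and labelled knockdown libraries 1 to 5 held 17.4, 13.0, 16.4, 25.7 and 10.4 FPKM. Labelled knockdown 4 lay inside the control range and the other 4 lay below it. Sparc had a log2 fold change of -0.70 (SE 0.19, limma adjusted p = 0.0295). Tnc, the hexameric glycoprotein tenascin-C of wounds and scars, was at 0.828, 1.06, 1.10, 1.25 and 0.539 FPKM in control libraries and at 0.568, 0.410, 0.507, 0.725 and 0.455 FPKM in labelled knockdown libraries, in replicate order. The groups overlapped through control 5, and Tnc had a log2 fold change of -0.34 (SE 0.11, limma adjusted p = 0.0489).

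Fn1, fibronectin, is made by hepatocytes for plasma and by mesenchymal cells for the matrix. Its values were 108, 97.4, 90.3, 91.7 and 89.7 FPKM in control libraries 1 to 5 and 62.8, 71.6, 84.5, 81.7 and 81.4 FPKM in labelled knockdown libraries 1 to 5. The groups did not overlap, and the lowest library was labelled knockdown 1, where Sparc, Lum and Nid1 were lowest in labelled knockdown 5. Fn1 had a log2 fold change of -0.32 (SE 0.10, limma adjusted p = 0.0422). With Nid1 and Lamc1 it was 1 of 3 tested members whose groups did not overlap, 10% of the 30, where 7.48% of all tested genes lay below without overlap. In the other direction 0 members and 5.66% of all tested genes lay above without overlap.

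Vtn, which encodes the plasma and matrix adhesion protein vitronectin, was the most abundant member and did not pass the test. Control libraries 1 to 5 held 832, 872, 951, 984 and 814 FPKM, and labelled knockdown libraries 1 to 5 held 814, 987, 1096, 870.3 and 1054 FPKM. Overlap between groups was wide, and the log2 fold change of 0.11 had an interval of -0.13 to 0.35 (limma adjusted p = 0.511). Its sign turned to -0.03 with quantile normalization. Vtn made up 71.1 to 77.3% of the summed FPKM of the 36 members in control and 73.9 to 83.8% in labelled knockdown libraries.

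Ecm1 encodes extracellular matrix protein 1, a secreted glycoprotein that binds several other matrix proteins. It was at 28.2, 31.4, 36.5, 29.2 and 26.4 FPKM in control and at 46.8, 31.3, 33.1, 40.2 and 37.9 FPKM in labelled knockdown libraries, in replicate order. All 5 labelled knockdown libraries were above the control mean of 30.3 FPKM, with overlap between the groups, and the log2 fold change of 0.30 did not pass (limma adjusted p = 0.0975). Ecm1 passed under 0 of 11 alternative settings and in 0 of 10 fits that each lacked a library. Postn, the matricellular protein periostin, averaged 1.47 ± 0.200 and 1.03 ± 0.295 FPKM, and Thbs2, a thrombospondin that inhibits vessel growth, 1.35 ± 0.327 and 0.940 ± 0.228 FPKM in control and labelled knockdown libraries (limma adjusted p = 0.0744 and 0.119).

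**Figure D2:**
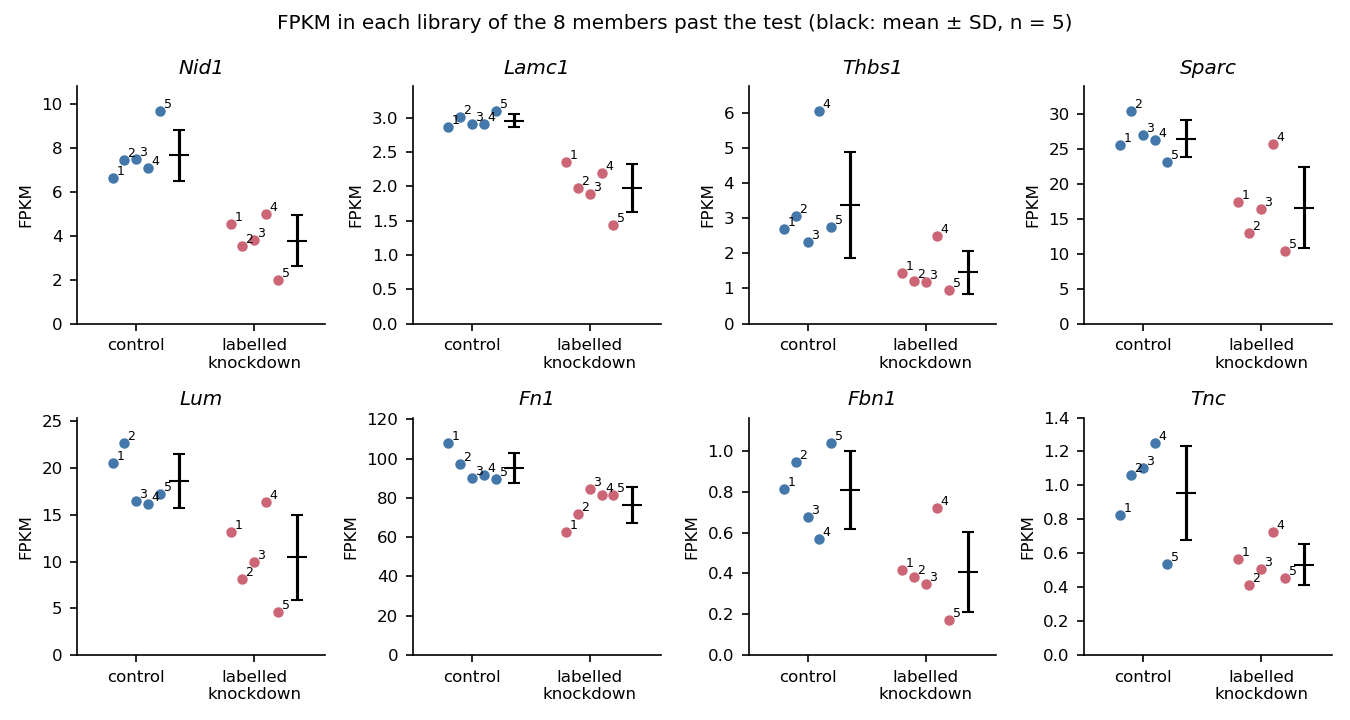
FPKM (y axis, from 0) in each library of the 8 members past the limma test, in control and labelled knockdown groups (x axis), with replicate numbers beside the points and the mean ± SD in black. The groups are apart for Nid1, Lamc1 and Fn1, and labelled knockdown 4 is the highest of its group for 6 of the 8 genes, and control 4 stands far above the rest for Thbs1.

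Of the proteoglycans and small matrix proteins, 5 of 6 were tested and 1 was lower, where 9.65% of all tested genes were. Lum encodes lumican, a small leucine-rich keratan sulphate proteoglycan that sets the spacing of collagen fibrils. Control libraries 1 to 5 held 20.6, 22.7, 16.5, 16.2 and 17.2 FPKM, and labelled knockdown libraries 1 to 5 held 13.2, 8.10, 10, 16.4 and 4.61 FPKM. Labelled knockdown 4 was inside the control range and the other 4 were below it. Lum had a log2 fold change of -0.87 (SE 0.25, limma adjusted p = 0.0381).

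Bgn, the related proteoglycan biglycan, was at 32.9, 31.7, 26.3, 25.9 and 26.7 FPKM in control and at 25.6, 16.7, 18.6, 26.8 and 13.7 FPKM in labelled knockdown libraries, in replicate order. Its log2 fold change of -0.51 had an interval of -0.88 to -0.15 and an adjusted p of 0.0541 (limma), just outside the threshold, as Tnc was just inside it. Dcn, decorin, which coats collagen fibrils and binds TGF-beta, is the third member of this family here and had the smallest fold change of all tested members. It was at 47.8, 44.0, 45.3, 35.1 and 48.0 FPKM in control libraries 1 to 5 and at 54.3, 37.7, 38.4, 49.9 and 29.5 FPKM in labelled knockdown libraries 1 to 5. Labelled knockdown 1 and 4 were above every control and labelled knockdown 5 was below every control. Its log2 fold change was -0.09, with an interval of -0.43 to 0.25 (limma adjusted p = 0.713).

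Dpt, dermatopontin, a small protein that binds decorin, averaged 6.71 ± 2.44 FPKM in control and 4.0 ± 2.28 FPKM in labelled knockdown libraries, a log2 fold change of -0.69 with an SE of 0.30 (limma adjusted p = 0.134). Mgp, matrix Gla protein, an inhibitor of calcification, spread from 0.526 to 0.839 FPKM in control and from 0.0230 to 1.43 FPKM in labelled knockdown libraries. The large proteoglycan versican, Vcan, was under the minimum, at 0.0883 to 0.142 and 0.0216 to 0.146 FPKM.

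Of the elastic fibre core and microfibril members, 5 of 6 were tested and 1 was lower, where 9.65% of all tested genes were. Fbn1 encodes fibrillin-1, the backbone of microfibrils. Its values were 0.814, 0.947, 0.678, 0.568 and 1.04 FPKM in control libraries 1 to 5 and 0.418, 0.382, 0.348, 0.719 and 0.173 FPKM in labelled knockdown libraries 1 to 5. Labelled knockdown 4 was inside the control range, and Fbn1 had a log2 fold change of -0.37 (SE 0.11, limma adjusted p = 0.0424). This gene reached 0.5 FPKM in 5 control libraries and in 1 labelled knockdown library, so it was tested through the group where it is higher.

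Emilin1, a glycoprotein at the surface of elastic fibres, was the most abundant of them. It was at 9.26, 7.32, 9.44, 8.09 and 6.34 FPKM in control and at 7.17, 4.65, 5.32, 8.40 and 4.01 FPKM in labelled knockdown libraries, in replicate order, with overlap (log2 fold change -0.42, limma adjusted p = 0.105). Eln, elastin itself, ranged from 1.33 to 4.11 FPKM in control and from 0.518 to 2.96 FPKM in labelled knockdown libraries, a spread within each group larger than the difference between means of 2.50 and 1.65 FPKM. The microfibril-associated genes Mfap2 and Mfap4 had log2 fold changes of -0.16 each. In labelled knockdown 5 both were far below the rest, at 0.0651 and 0.0982 FPKM, where the other 9 libraries held at least 0.427 and 0.592 FPKM. Mfap5 was above 0 in 3 control libraries, at 0.0119 to 0.0149 FPKM, and was listed at 0 in the other 7 libraries.

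The fibulins, which bridge elastin to microfibrils and cells, gave 0 calls among 3 tested of 5 members, and 0 at an unadjusted limma p under 0.05. Efemp1, also called fibulin-3, led them at 9.48, 8.90, 8.49, 8.07 and 5.33 FPKM in control and 7.49, 6.92, 6.64, 9.68 and 3.31 FPKM in labelled knockdown libraries, in replicate order. The groups overlapped, with labelled knockdown 4 the highest library and labelled knockdown 5 the lowest (log2 fold change -0.25, limma adjusted p = 0.443). Efemp2, which helps to crosslink elastin, averaged 2.06 ± 0.320 and 1.71 ± 0.490 FPKM, and Fbln5, an elastin-binding fibulin, 1.63 ± 0.258 and 1.43 ± 0.456 FPKM. Fbln1 and Fbln2 were under the minimum. Fbln2 was at 0.524, 0.552, 0.231, 0.370 and 0.497 FPKM in control and at 0.326, 0.254, 0.217, 0.194 and 0.149 FPKM in labelled knockdown libraries.

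Most latent TGF-beta binding proteins tether the inactive cytokine to microfibrils. Of the 4 members of this family, all tested, 0 passed the limma test and 1, Ltbp4, had an unadjusted p under 0.05. Ltbp4 held 7.5, 7.01, 5.83, 5.46 and 7.42 FPKM in control and 5.40, 4.35, 4.41, 7.01 and 3.97 FPKM in labelled knockdown libraries, in replicate order. Labelled knockdown 4 was inside the control range and the other 4 were below it (log2 fold change -0.36, limma adjusted p = 0.0896). Ltbp1, Ltbp2 and Ltbp3 had log2 fold changes of -0.23, -0.35 and -0.18, with adjusted p from 0.170 to 0.541.

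The authors' deposited table gave a q-value under 0.05 to 10 of the 36 members, 9 with a fold below 1 and Ecm1 above it. That table marked 2, Nid1 and Thbs1, as significant, a mark it gave to 398 genes in all. Of the 30 members tested here 8 (26.7%) had a fold below 1 with a q-value under 0.05 in the authors' deposited table, where 8.77% of all genes tested here did. In the authors' deposited table Fn1 had a q-value of 0.126, and the 9 lower members were the other 7 called here together with Fbln2 (q = 0.0191) and Bgn (q = 0.0280).

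The first 250 bases upstream of the start annotated by RefSeq (build GRCm38.p6) are shown for the 4 of the 8 lower members that have an entry in the promoter table, so that their start regions can be compared. Matches to any of 5 short motifs are in capitals, on either strand: the TATA box TATAAA, the GC box GGGCGG, the CCAAT box, the AP-1 motif TGANTCA and the TEAD motif CATTCC.
Nid1 (chr13:13437352-13437601, plus strand): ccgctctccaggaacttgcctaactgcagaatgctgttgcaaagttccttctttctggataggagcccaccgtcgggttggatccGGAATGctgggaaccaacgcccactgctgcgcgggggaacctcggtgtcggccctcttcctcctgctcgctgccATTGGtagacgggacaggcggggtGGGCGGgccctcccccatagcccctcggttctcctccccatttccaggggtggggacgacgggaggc
Sparc (chr11:55420081-55420330, minus strand): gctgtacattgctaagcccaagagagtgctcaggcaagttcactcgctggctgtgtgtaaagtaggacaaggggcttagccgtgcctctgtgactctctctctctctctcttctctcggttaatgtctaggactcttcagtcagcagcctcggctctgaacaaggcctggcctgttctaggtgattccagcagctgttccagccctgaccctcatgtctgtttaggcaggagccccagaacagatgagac
Fbn1 (chr2:125506439-125506688, minus strand): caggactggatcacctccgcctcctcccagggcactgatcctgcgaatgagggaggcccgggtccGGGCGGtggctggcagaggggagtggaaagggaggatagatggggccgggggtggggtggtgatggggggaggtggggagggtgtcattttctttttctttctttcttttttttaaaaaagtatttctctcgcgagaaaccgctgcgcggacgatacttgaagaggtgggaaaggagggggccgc
Tnc (chr4:64047016-64047265, minus strand): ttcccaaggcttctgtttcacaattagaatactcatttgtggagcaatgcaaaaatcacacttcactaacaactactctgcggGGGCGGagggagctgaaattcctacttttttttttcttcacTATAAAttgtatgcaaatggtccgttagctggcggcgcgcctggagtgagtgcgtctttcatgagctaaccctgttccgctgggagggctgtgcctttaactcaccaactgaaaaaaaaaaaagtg
Nid1 held a GC box at position -67 from the start, a CCAAT match at -91 and a CATTCC match at -165. Tnc held TATAAA at -126 and a GC box at -167, Fbn1 a GC box at -185, and the Sparc window none of the 5, and no match overlapped another. For Tnc, the table lists 2 starts and the first listed was used. Among the 25 members with an entry, GGGCGG was present in 15 (60%), TATAAA in 4 (16%), CCAAT in 7 (28%), and the AP-1 and TEAD motifs in 2 each (8%). Over the first listed start of all 27025 genes with an entry the shares were 32.9, 13, 34.5, 6.87 and 12.6% in the same order. A match is a description of these letters and says nothing of binding.

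The libraries of the labelled knockdown group differed among themselves in these genes. Labelled knockdown 5 had the lowest value of all 10 libraries for 25 of the 30 tested members and lay below the control range for 27. Labelled knockdown 4 had the highest value of its group for 20 and lay inside the control range for 22. The median departure of the tested members from their control mean, on the log2(FPKM + 1) scale, was -0.14, -0.38, -0.36, -0.02 and -0.66 in labelled knockdown libraries 1 to 5 and between -0.09 and 0.08 in the control libraries. Without Vtn and Fn1, the members summed to 197 to 231 FPKM in control libraries and to 213, 147, 158, 225 and 122 FPKM in labelled knockdown libraries 1 to 5.

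**Figure D3:**
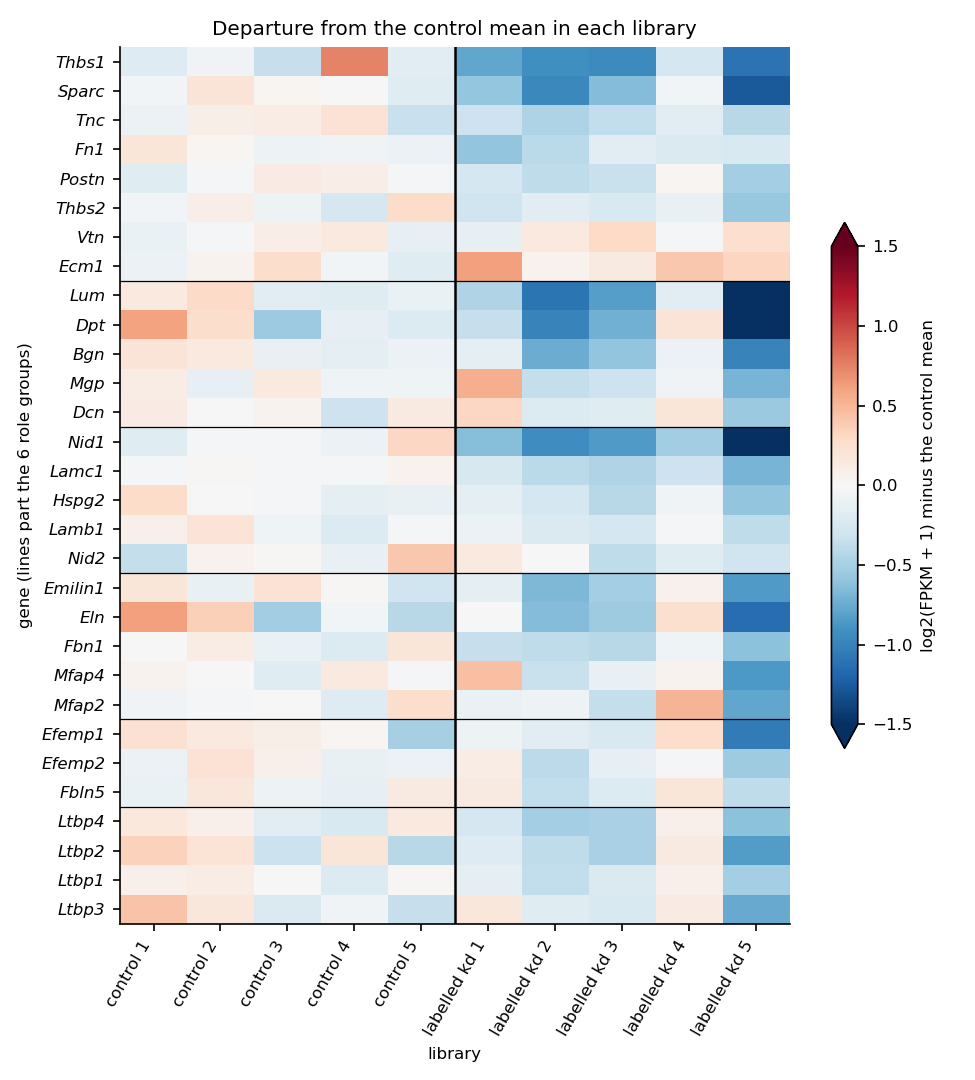
Colour shows log2(FPKM + 1) minus the control mean of each tested matrix gene (rows, by role) in each library (columns; "labelled kd" stands for labelled knockdown). The column of labelled knockdown 5 is the lowest for 25 of 30 genes, and that of labelled knockdown 4 is close to the control columns, with a median of -0.02.

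The number of lower members depended on these libraries. It was 13 without labelled knockdown 4, when 13% of all tested genes were lower, and 3 (Nid1, Lamc1 and Lum) without labelled knockdown 5, when 5.33% were. Without labelled knockdown 1, 2 or 3 it was 5, 2 and 2, when 6.22, 6.22 and 5.63% of all tested genes were lower, so 2 of 30 lay close to the share over all genes. Without control 1 to 5 it was 4, 2, 3, 4 and 7, when 7.21, 4.01, 4.61, 5.93 and 9.41% of all tested genes were. The Thbs1 call was lost without control 2 or without labelled knockdown 1, 2, 3 or 5, with adjusted p of up to 0.0584. That of Sparc was lost on removal of control 2, 3 or 4, or of labelled knockdown 2, 3 or 5 (up to 0.0698), and that of Lum on removal of any of controls 1 to 4 or of labelled knockdown 2 or 3 (up to 0.0873). Fn1 and Tnc held only without control 5 and without labelled knockdown 4, and Fbn1 only without control 4 and without labelled knockdown 4, with adjusted p of up to 0.0909, 0.108 and 0.0974 in the other fits.

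Decorin, a product of fibroblasts and stellate cells, did not pass the test, and each member was also set against Dcn within a library, a choice made after its values were seen. The ratio of Lum to Dcn was 0.431, 0.516, 0.365, 0.461 and 0.359 in control and 0.243, 0.215, 0.260, 0.329 and 0.156 in labelled knockdown libraries, in replicate order. Every labelled knockdown ratio was below every control ratio, labelled knockdown 4 included. Dcn itself was above every control in labelled knockdown 4, at 49.9 FPKM, which lowers the ratios there. It was lowest of the controls in control 4, at 35.1 FPKM, which raises them there. The Bgn to Dcn ratio was 0.656 ± 0.0825 in control and 0.481 ± 0.0355 in labelled knockdown libraries, again without overlap. The same held for Nid1 (0.176 ± 0.0271 and 0.0889 ± 0.0135), Lamc1 (0.0680 ± 0.00867 and 0.0475 ± 0.00381), Thbs1 and Fbn1. In all, 6 of 29 ratios lay below without overlap and 0 above, where 1.52% of the ratios of all other tested genes to Dcn lay below and 1.85% above. These shares are not like for like. Dcn spread from 29.5 to 54.3 FPKM in the labelled knockdown group, and division by it adds spread to genes that do not follow it. Before division 7.48% of all tested genes lay below without overlap. The contrast with 1.52% is therefore not a result about the members. A ratio shows unequal change of its 2 genes and not which of them moved.

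**Figure D4:**
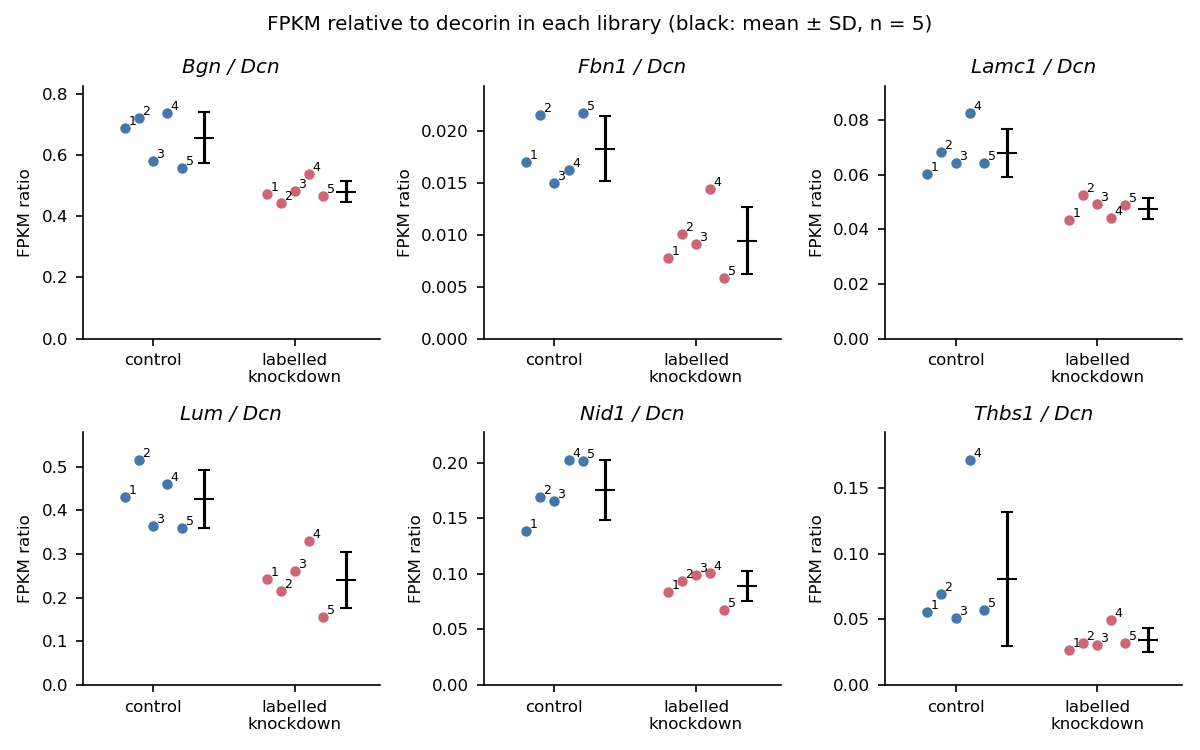
FPKM of 6 members divided by the FPKM of Dcn in the same library (y axis, from 0), in control and labelled knockdown groups (x axis), with replicate numbers beside the points and the mean ± SD in black. These 6 were chosen as the ratios without overlap; for Lum, labelled knockdown 4 is the highest of its group at 0.329 and the lowest control is at 0.359.

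Marker genes of the cells that a liver sample holds were summed beside these genes. Over all tested genes 9.65% were lower, and at an unadjusted limma p under 0.05 19.6% were lower and 13.9% higher. In lists this short, 1 or 2 lower genes do not set a list apart from all genes. The summed FPKM of 9 myofibroblast markers was 48.6 to 67.6 in control libraries and 47.5, 30.7, 41.3, 60.8 and 25.6 in labelled knockdown libraries 1 to 5, so labelled knockdown 4 was high and labelled knockdown 5 low here too. Of these markers, 9 were tested, 1 was lower and 4 had an unadjusted p under 0.05, with a median log2 fold change of -0.28. The collagen genes Col1a1, Col1a2 and Col3a1 held a large part of these sums, with control means of 14.6, 6.76 and 19.8 FPKM. Col1a1 was the lower gene (limma adjusted p = 0.0499). Col1a2 and Col3a1 missed the threshold with log2 fold changes of -0.68 and -0.72 (limma adjusted p = 0.0532 and 0.0569). Acta2, Tagln, Timp1, Thy1, Lox and Pdgfra did not pass, with log2 fold changes from -0.35 to 0.04 (limma adjusted p from 0.127 to 0.862). The 9 stellate cell markers summed to 56.7 to 62.5 FPKM in control and 44.5 to 60.5 FPKM in labelled knockdown libraries, with 2 of 9 lower, 2 at an unadjusted p under 0.05 and a median of -0.27. The 9 markers of portal fibroblasts and mesothelium summed to 9.26 to 17.2 and 6.02 to 13.3 FPKM (0 of 3 tested lower, 0 at an unadjusted limma p under 0.05). Entpd2 alone held 7.01 to 10.9 and 5.04 to 9.28 FPKM of these sums. The 5 markers of vascular smooth muscle summed to 2.27 to 3.72 and 1.49 to 2.90 FPKM (0 of 1 tested lower by limma, 1 at an unadjusted p under 0.05). Endothelial markers summed to 18.7 to 33.6 and 15.8 to 22.7 FPKM (1 of 9 tested lower, 2 at an unadjusted p under 0.05, median -0.30). Those of Kupffer cells and macrophages summed to 168 to 244 and 113 to 193 FPKM (2 of 9 lower, 4 at an unadjusted p under 0.05, median -0.40). Cholangiocyte markers summed to 132 to 372 and 49.1 to 305 FPKM, lowest in labelled knockdown 5 (0 of 5 lower by limma, 1 at an unadjusted p under 0.05, median -0.46). Spp1 alone held 118 to 340.1 and 39 to 279.7 FPKM of the cholangiocyte sums, so they mostly follow 1 gene. From the myofibroblast to the cholangiocyte list these medians ran from -0.46 to -0.27, where that of the matrix genes was -0.29. Those of the portal and smooth muscle lists, -0.32 and -0.31, rest on 3 and 1 tested genes. Markers of T and NK cells, B and plasma cells and neutrophils gave 0 calls by limma among 5 tested, and 0 at an unadjusted p under 0.05. The part of these cells in the matrix results was not tested.

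The relation of values to transcript length differed between the groups as well. Per doubling of length, a library's log2 values departed from the gene means by 0.019 to 0.046 in control and by -0.059 to -0.007 in labelled knockdown libraries, ranges that do not overlap, and tested members had a median longest transcript of 5049.5 bases where all tested genes with a length had 2970. Of the 30, 16 were among the longest of 5 equal classes of tested genes, at 4844 bases or more, and 6 of these (37.5%) were lower, where 16.6% of all genes of that class were. Of the other 14, 2 (14.3%) were lower, Sparc and Lum, where 8.11% of all other genes were. After each library's length trend was removed, 5 members stayed lower (Nid1, Lamc1, Sparc, Lum and Thbs1, limma adjusted p from 0.0144 to 0.0456), where 5.46% of all genes were. Fn1, Fbn1 and Tnc were not called then, with log2 fold changes of -0.21, -0.26 and -0.23, and the median of the 30 was -0.23 against 0 over all genes.

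**Figure D5:**
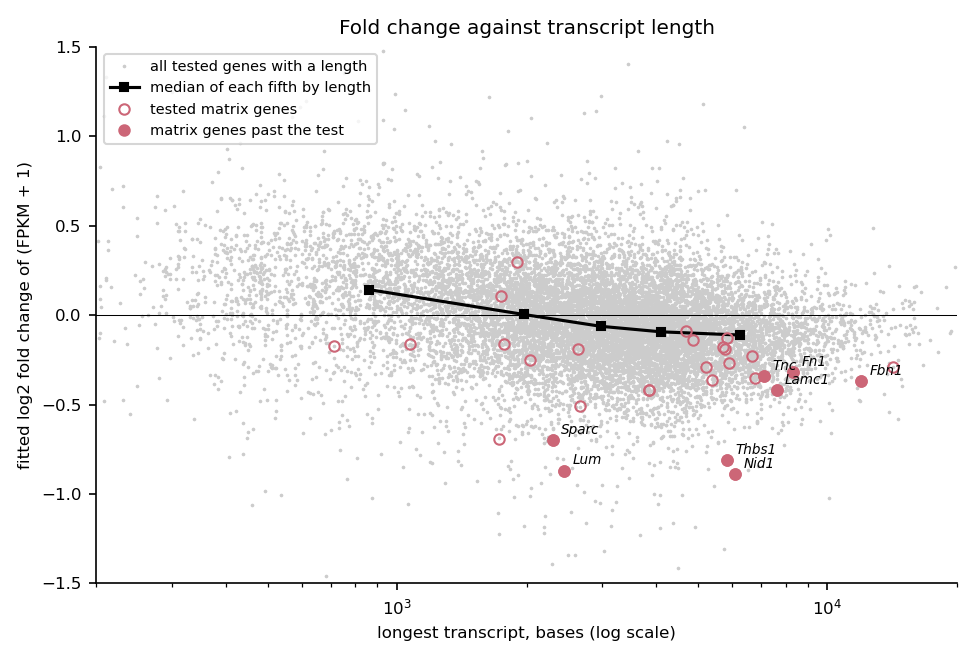
Fitted log2 fold change of FPKM + 1 (y axis, drawn from -1.5 to 1.5, which leaves out the most changed genes) against the longest transcript in bases (x axis, log scale) for all tested genes with a length (grey), with the median of each of 5 equal length classes in black. Tested matrix genes are circles, filled where past the limma test; Sparc and Lum are the 2 filled points outside the longest class.

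Other genes of the matrix and its receptors were described from lists that hold no member. Of 62 other matrix glycoprotein and proteoglycan genes, 30 were tested, 3 were lower and 0 higher by limma (9 at an unadjusted p under 0.05 in either direction), with a median log2 fold change of -0.23. At that unadjusted threshold 19.6% of all tested genes were lower and 13.9% higher. The 3 lower genes are 10% of those tested, close to the 9.65% over all genes, so their number does not set the list apart. Prelp, a leucine-rich protein that anchors basement membrane to connective tissue, averaged 20.7 ± 3.45 FPKM in control and 12.5 ± 2.38 FPKM in labelled knockdown libraries (limma adjusted p = 0.0126, log2 fold change -0.68). Emilin2, a relative of Emilin1, fell from 1.09 ± 0.0975 to 0.548 ± 0.139 FPKM (adjusted p = 0.00947, limma). For both the groups did not overlap, and the call held whichever library was left out and under every alternative setting that tested the gene. Mfap3, named as a microfibril-associated protein, went from 2.94 ± 0.375 to 2.02 ± 0.327 FPKM, a call lost without control 2 (limma adjusted p = 0.0530), with no filter on low values (0.0507) and with the replicate block (0.0556).

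Of 28 receptors for matrix proteins, 22 were tested, 5 were lower and 0 higher (11 at an unadjusted limma p under 0.05), with a median log2 fold change of -0.30. Over all tested genes 9.65% were lower and 7.13% higher. At an unadjusted limma p under 0.05 these shares were 19.6% and 13.9%. Itgb1, the beta 1 chain shared by most integrins that bind laminin, fibronectin and collagen, fell by 0.50 on the log2 scale, with means of 42.7 ± 0.909 and 30 ± 3.62 FPKM (limma adjusted p = 0.00852). Itga9, whose integrin binds tenascin-C, fell from 2.11 ± 0.246 to 1.16 ± 0.0993 FPKM (limma adjusted p = 0.00684). Neither gene had overlap between the groups. Dag1, dystroglycan, a laminin and perlecan receptor, and Sdc3, a cell-surface heparan sulphate proteoglycan, fell with log2 fold changes of -0.47 and -0.48 (limma adjusted p = 0.0181 and 0.0167). These 4 held under all 11 alternative settings and whichever library was left out, and the fifth, Mrc2, a collagen uptake receptor, had an adjusted p of 0.0329. The transcripts of Itga9, Dag1, Sdc3 and Mrc2, but not that of Itgb1, exceed 4844 bases. They belong to the longest class, in which 16.6% of all genes were lower.

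Of 21 enzymes that build proteoglycan chains, 18 were tested, 3 were lower and 0 higher (9 at an unadjusted limma p under 0.05), with a median log2 fold change of -0.09. The transcripts of all 3 exceed 4844 bases and so belong to the longest class, in which 16.6% of all genes were lower. Extl3, which starts heparan sulphate chains, fell from 5.71 ± 0.334 to 4.24 ± 0.355 FPKM (limma adjusted p = 0.0113), and Ndst1, which begins the sulphation of such chains, from 18.1 ± 0.866 to 13.2 ± 2.03 FPKM (adjusted p = 0.0187, limma, and 0.0916 after removal of the length trend). Hs2st1, a sulphotransferase of the same chains, was lower at a limma adjusted p of 0.0428, a call that held under 5 of 11 alternatives and, when single libraries were left out, only without labelled knockdown 4. Of 5 tested crosslinking enzymes of elastin and collagen, 1, Loxl2, was lower (limma adjusted p = 0.02), where 9.65% of all tested genes were. The Loxl2 transcript, at 5316 bases, is also of the longest class.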

How the data were processed

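Liver RNA from 10 mice, 5 per group by the sample titles, was sequenced. Poly(A) selection and strand-marking dUTP libraries are named per the labels' protocols, and whether counting used the strand is not stated there. Cutadapt 1.9, with HISAT2 2.0.4 and also StringTie 1.3.4d, are listed, with no role stated, in the submitters' processing notes. The build in those notes is a human one while the gene identifiers are mouse Ensembl identifiers, so no gene coordinates of the table are printed. The deposited table gave FPKM per library, per the file headers, as well as the authors' own fold ratio of group means. Log2 of that fold, a p-value and a q-value were also deposited, without the name of the test. All 10 sample columns were used, and no library repeated another (0 identical pairs). The labels give no batch that separates the libraries, and p-values measure the spread between these mice.

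Genes with at least 0.5 FPKM in at least 5 libraries were kept (13471). Log2(FPKM + 1) values, which shrink the fold of weakly expressed genes, were tested two-sided between groups with limma 3.58.1 (R 4.3.3), using a mean-variance trend and no covariate, with Benjamini-Hochberg adjustment over all tested genes at 0.05. FPKM are not counts, whole reads were not recovered (tolerance 0.02), and precision is given by the spread between mice. Transcript length was the longest transcript of GENCODE M21, matched by identifier for 97.9% of tested genes. Members and lists were chosen with earlier results of these data known. Named genes were all members, the called genes of the other lists (at most 4 per list in order of p) and Lgals3. All values were given for members past the test and for the most abundant member of each role, and for Bgn, Ecm1 and Fbln2 after their values were seen. Mrc2, B3gat3, Alb, Spp1, Entpd2 and the myofibroblast markers other than Col1a1 were also named after their values were seen. Protein sequences and the promoters of the other members are not shown. Alternatives were other pseudocounts, filters, scalings, weights, no variance trend, a replicate block, removal of the length trend, and leaving out each library.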

Additional observations from a re-analysis of the deposited data

Results flagged for a closer look

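The most distant library of each group of 5 was compared with the range of its group for the 30 tested members, 60 groups of values in all. In 3 of the 60 groups 1 library stood far from the others. Chance gives about 1 in 20, so this number is no more than chance gives. Thbs1 was at 6.03 FPKM in control 4, where the other control libraries held 2.31 to 3.06 FPKM. Dcn was at 35.1 FPKM in control 4, where the others held 44.0 to 48.0 FPKM, which raises the ratios to Dcn in that library. Efemp1 was at 5.33 FPKM in control 5, where the others held 8.07 to 9.48 FPKM.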

How the results depend on the processing

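The median log2 fold change of the tested members stayed below 0 in all settings, from -0.50 with a pseudocount of 0.1 to -0.22 without labelled knockdown 5 (main value -0.29); without 1 library it ranged from -0.36 to -0.22. The number of lower members, 8, became 13 with array weights, 5 with the length trend removed and 2 with no filter on low values. Of all tested genes 15.2, 5.46 and 2.3% were lower in these settings, in that order. The number ranged from 2 to 13 without 1 library, when 4.01 to 13% of all tested genes were lower, while 0 members were higher in any setting. With the replicate number as a block it was 5 (Thbs1, Nid1, Lamc1, Sparc and Lum), when 7.32% of all tested genes were lower. The labels do not say that the numbers pair mice: the correlation of same-numbered libraries was over 0.1 in 1 of 5 pairs, and 1 of 5 control libraries correlated best with its own number. Over all genes, 1300 were lower and 960 higher, a share of 57.5% lower among the calls. With median-of-ratios scaling 1060 were lower and 1240 higher (46.1% lower), and with the length trend removed 720 and 894 (44.6%). With no filter 682 were lower and 511 higher, and array weights gave 2047 lower. Without 1 library the lower genes ranged from 533 to 1733 and the higher from 440 to 954. Signs turned for Dcn (0.01 with the length trend removed, -0.19 to 0.02 without 1 library), Mfap4 (-0.31 to 0.02 without 1 library, both highest without labelled knockdown 5) and Vtn (-0.03 with quantile normalization), all of which missed the threshold. The cause of these shifts was not tested. Beside no filter, which left only Nid1 and Lamc1 called, Fn1 was lost with median-of-ratios scaling, the block and the length trend removed, Fbn1 with the last 2, and Tnc with a pseudocount of 0.1, a minimum of 0.1 FPKM, median-of-ratios scaling, quantile normalization, the block and the length trend removed. FPKM do not report their counting error, and the fragment numbers behind low members such as Fbn1 and Tnc were not recovered.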
